A study of Mus musculus with 20 samples.

Results

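The genes described here are 10 enzymes and regulators of de novo lipogenesis, the synthesis of fatty acids from carbohydrate carbon: Acly, Acaca, Acacb, Fasn, Elovl6, Scd1, Me1, Srebf1, Mlxipl and Thrsp. They were taken by symbol from a table of read counts that holds 46095 genes, and each of the 10 had a single entry. The study sequenced RNA from mouse livers in 4 groups of 5 libraries, 20 in all, from mice aged 31 to 33 weeks. Wild-type mice (WT) and mice described as liver-specific Pck1 knockouts (Pck1-cKO, KO below) each ate, for 24 weeks, either chow or a diet given to produce non-alcoholic steatohepatitis (NASH). Pck1 encodes the cytosolic form of phosphoenolpyruvate carboxykinase, which withdraws oxaloacetate toward glucose. The series asks what Pck1 does to liver transcription under the NASH diet, and the comparisons below are the diet within each genotype, the genotype within each diet, and the difference between the genotype effects. Not given in the sources used here are the promoter that drove the deletion, the composition of the diet, the feeding state and the hour of collection. Libraries are numbered as separate mice, so they were treated as biological replicates.

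In the liver, fatty acid synthesis starts from citrate that leaves the mitochondrion. ATP-citrate lyase (Acly) cleaves it to acetyl-CoA, the acetyl-CoA carboxylases (Acaca, Acacb) make malonyl-CoA, and fatty acid synthase (Fasn) builds palmitate with NADPH, part of which comes from malic enzyme (Me1). Elovl6 lengthens palmitate and Scd1 introduces a double bond. Insulin acts on these genes largely through SREBP-1c, a product of Srebf1, and glucose through ChREBP, the product of Mlxipl, while Thrsp (Spot 14) encodes a small protein, itself a target of both, that accompanies lipogenic activity. The pathway is low in fasted liver and rises on feeding with carbohydrate. On GRCm38, Acaca, Acly, Fasn and Srebf1 lie on chromosome 11, Acacb and Mlxipl on chromosome 5, Elovl6 on 3, Thrsp on 7, Me1 on 9 and Scd1 on 19.

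All 10 genes were among the 14440 that passed the filter on low counts, and the lowest count of any of them in a library was 33. Library totals ran from 9958935 to 20601955 counts. Pck1 itself checked the genotype labels: WT chow livers held 3573 ± 1139 CPM (read counts scaled to the effective library size; SD, n = 5), KO chow livers 626 ± 175, WT NASH livers 2290 ± 511 and KO NASH livers 445 ± 112, with no overlap between genotypes on either diet. Summed CPM of 5 hepatocyte markers lay between 44770 and 116400 in the 20 libraries, high in all of them. The labels give no sex, but Y-linked counts split the libraries into 13 male and 7 female: all 5 WT chow libraries were male, 4 of 5 WT NASH female, 3 of 5 KO chow male and 4 of 5 KO NASH male. In 6 libraries, CPM fell with gene length relative to the other libraries (negative length slope): WT chow 3, 4 and 5, WT NASH 4, and KO chow 4 and 5. WT NASH 4 was thus the single male of its group and also the single one with a negative slope, so within that group the 2 properties cannot be told apart. KO NASH 1 and 5 resembled each other more than any other pair of that group (chi-square per gene 8.39, other pairs 49.1 to 89.8), still above counting noise, and were kept as 2 samples.

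The promoters of the genes that the diet and genotype comparisons turn on are printed first, each as the 250 bases before the transcription start in RefSeq (GRCm38.p6), 5′ to 3′ on the gene's strand. They were searched on both strands for an E-box (CACGTG), a sterol regulatory element (SRE, TCACNCCAC), an NF-Y box (CCAAT) and a GC box (GGGCGG), which are the letters associated with ChREBP and USF, SREBP, NF-Y and Sp1, and matches are in capitals. The Fasn window, chr11:120824548-120824797 on the minus strand, and the Acly window, chr11:100528001-100528250 on the minus strand, belong to the 2 enzymes that were called both for the diet in WT and for the genotype on the NASH diet. Mlxipl is shown at both of its starts, because the counts below pool them: start 1 lies inside the gene at chr5:135106641-135106890 and start 2 at its 5′ end at chr5:135089640-135089889, both on the plus strand.
Fasn: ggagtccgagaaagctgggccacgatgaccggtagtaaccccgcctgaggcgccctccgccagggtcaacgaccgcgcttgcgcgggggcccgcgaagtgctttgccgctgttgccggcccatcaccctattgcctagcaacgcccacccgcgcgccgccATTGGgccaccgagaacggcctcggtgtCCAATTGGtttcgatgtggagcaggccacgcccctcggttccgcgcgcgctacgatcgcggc
Acly: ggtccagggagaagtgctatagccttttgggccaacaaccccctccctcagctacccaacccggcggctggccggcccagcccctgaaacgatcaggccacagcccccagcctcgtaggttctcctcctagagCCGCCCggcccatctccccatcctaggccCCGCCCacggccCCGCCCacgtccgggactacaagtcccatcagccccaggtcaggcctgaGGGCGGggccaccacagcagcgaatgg
Mlxipl start 1: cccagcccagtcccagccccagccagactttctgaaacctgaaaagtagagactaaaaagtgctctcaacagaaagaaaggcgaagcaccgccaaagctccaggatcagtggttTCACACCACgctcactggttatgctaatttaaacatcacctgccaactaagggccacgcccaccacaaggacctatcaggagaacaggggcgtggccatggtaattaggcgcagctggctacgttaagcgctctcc
Mlxipl start 2: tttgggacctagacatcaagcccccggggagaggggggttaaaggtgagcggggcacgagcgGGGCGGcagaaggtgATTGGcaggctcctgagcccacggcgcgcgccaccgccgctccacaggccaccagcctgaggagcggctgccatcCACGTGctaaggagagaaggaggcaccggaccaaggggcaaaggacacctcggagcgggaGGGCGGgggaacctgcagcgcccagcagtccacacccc
The Fasn window held 3 NF-Y boxes, beginning 90, 62 and 59 bases before the start, of which the last 2 overlap in opposite orientation. The Acly window held 4 GC boxes, 117, 88, 76 and 27 bases before the start, and no NF-Y box. Mlxipl start 1 held the single SRE match among the members, 136 bases before the start, and start 2 held the single E-box, 98 bases before it, besides 1 NF-Y box and 2 GC boxes. Windows were found for 9 of the 10 genes, with 13 starts. The 2 NF-Y boxes of Thrsp lay 79 and 52 bases before its start, the 3 starts of Srebf1 held 2 NF-Y and 4 GC boxes, the 2 starts of Me1 held 1 NF-Y and 3 GC boxes, Acacb held 1 NF-Y box, and the windows of Acaca and Elovl6 held none of the 4. For comparison, 33.8% of 32851 mouse promoter windows of this length hold an NF-Y box, 32.7% a GC box, 6.02% an E-box and 1.05% the SRE letters. These matches describe the letters only.

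For 6 of the 10 genes the highest group mean was that of wild-type livers on the NASH diet. Against WT chow, 4 of the 10 rose in WT NASH (Fasn, Srebf1, Acly and Acaca) and none fell by edgeR's quasi-likelihood test at an adjusted p below 0.05, while 5.93% of all genes were called (2.69% higher and 3.24% lower) and 7 of the 10 had an unadjusted p below 0.05. Against WT NASH, 7 of the 10 were lower in KO NASH (Thrsp, Fasn, Scd1, Elovl6, Mlxipl, Acly and Srebf1) and none higher, where 9.65% of all genes were called (4.9% higher and 4.74% lower). The median log2 fold change of the 10 was 1.21 in the first comparison and -1.21 in the second, beside 0.01 and 0 over all genes, and these comparisons share the WT NASH libraries. On chow the genotypes differed in 3 genes: Acacb was higher in KO and Mlxipl and Thrsp lower, where 5.53% of all genes were called (3.03% higher and 2.49% lower). Between the diets within KO, Elovl6 alone was called, lower on the NASH diet, where 3.29% of all genes were called (1.77% higher and 1.52% lower).

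**Figure D1:**
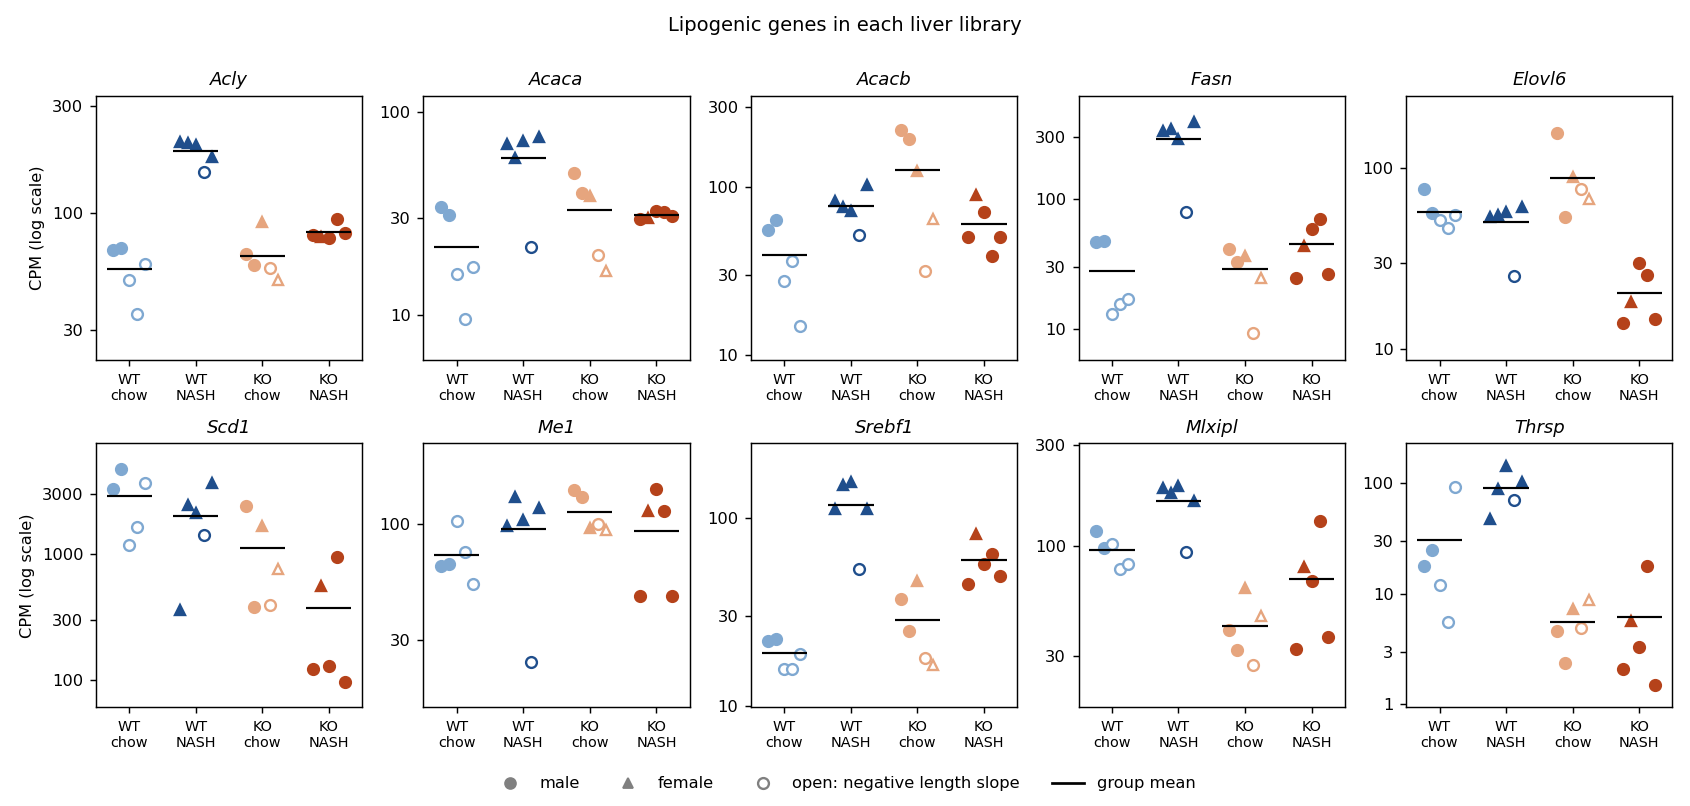
CPM of each of the 10 genes in each library (log axis), by group, with circles for male and triangles for female libraries, open symbols for a negative length slope and a bar for the group mean. For Acly, Fasn and Thrsp all 5 KO NASH points lie below all 5 WT NASH points, and the open circle in WT NASH (replicate 4) is the lowest of its group for 8 of the 10 genes, all but Scd1 and Thrsp.

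Acly, which supplies the cytosolic acetyl-CoA, separated WT NASH from every other group. It was at 67.9, 69.3, 50.2, 35.3 and 59.04 CPM in WT chow replicates 1 to 5 and at 207, 206, 199.6, 152 and 178 in WT NASH. In the knockout livers it was at 65.2, 58.6, 90.7, 56.9 and 49.9 on chow and 79.5, 78.1, 77.1, 93.96 and 81.03 on the NASH diet. No KO NASH library reached the lowest WT NASH value of 152 CPM. The rise with diet in WT was 3.34-fold (log2 difference 1.74 ± 0.2 (SE), edgeR adjusted p = 4.78e-05), and in KO the corresponding log2 value was 0.35 (adjusted p = 0.287). KO NASH was 2.3-fold below WT NASH (log2 difference -1.2 ± 0.197 (SE), edgeR adjusted p = 0.000895), while on chow the genotypes were at 56.4 ± 14.02 and 64.3 ± 15.8 CPM (adjusted p = 0.635). Within KO NASH its coefficient of variation was 8.39%, and of the 10 genes Acaca alone varied less there (4.14%).

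Fasn, which assembles palmitate, showed the widest diet difference of the 10. Its CPM in WT chow was 46.97, 47.8, 13.1, 15.6 and 17.1, and in WT NASH 333, 349, 291, 80.03 and 391. In KO chow it was 41.5, 32.7, 36.7, 9.22 and 24.8 and in KO NASH 24.9, 43.9, 59.2, 70.3 and 26.6. WT NASH stood above all other libraries, but replicate 4, at 80.0 CPM, was closer to the highest KO NASH library (70.3) than to the next WT NASH library (290.7). The WT diet rise was 10.2-fold (log2 difference 3.36 ± 0.505 (SE), edgeR adjusted p = 0.000641) and the KO NASH level was 6.42-fold below WT NASH (log2 difference -2.68 ± 0.49 (SE), edgeR adjusted p = 0.00207). On chow the genotype means were 28.1 ± 17.6 and 28.99 ± 12.6 CPM, a log2 difference of 0.04 ± 0.463 (SE). The 3 WT chow libraries with a negative length slope held 13.1 to 17.05 CPM and the other 2 held 47.0 and 47.8, so for this gene of long transcript the spread in WT chow followed the slope.

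The carboxylases moved differently from each other. Acaca, the cytosolic enzyme that makes malonyl-CoA for synthesis, was at 33.9, 31.04, 15.8, 9.59 and 17.2 CPM in WT chow and 69.1, 59.5, 71.7, 21.5 and 74.96 in WT NASH. In KO chow it was at 49.8, 39.6, 38.6, 19.8 and 16.5 and in KO NASH at 29.7, 29.9, 32.4, 32.3 and 30.6. Again 4 WT NASH libraries were high and replicate 4 was low, and KO NASH varied very little (30.96 ± 1.28 CPM). The libraries with a negative length slope were the lowest of both chow groups, at 9.59 to 17.2 CPM in WT and 16.5 and 19.8 in KO. No KO NASH library had a negative slope. Acaca rose 2.76-fold with diet in WT (log2 difference 1.46 ± 0.359 (SE), edgeR adjusted p = 0.0205), a call that ended without WT chow 3, WT chow 5 or WT NASH 5 (adjusted p = 0.0538 to 0.057). Its KO NASH against WT NASH value was -0.94 ± 0.354 (SE) with adjusted p = 0.0972, and without WT NASH 4 it was -1.15 with edgeR adjusted p = 0.0314.

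Acacb, whose mitochondrial malonyl-CoA restrains fatty acid entry for oxidation, had its highest values in KO chow. It was at 55.4, 63.2, 27.6, 36.1 and 14.9 CPM in WT chow and 218, 192, 124, 31.4 and 63.98 in KO chow. In WT NASH it was at 82.2, 75.6, 71.4, 51.6 and 102 and in KO NASH at 49.97, 89, 70.7, 38.8 and 50.4. KO chow spanned 31.4 to 217.7 CPM, overlapping WT chow through replicate 4. The KO rise on chow was 3.19-fold (log2 difference 1.67 ± 0.436 (SE), edgeR adjusted p = 0.0292), and ended without any 1 of WT chow 3, 4 or 5 or KO chow 1 or 2 (log2 1.38 to 1.66, adjusted p = 0.0596 to 0.0996). The libraries with a negative length slope were the lowest of both groups, at 14.9 to 36.1 CPM in WT chow and 31.4 and 64.0 in KO chow. Neither the KO NASH against WT NASH value of -0.36 ± 0.425 (SE) nor the WT diet value of 0.96 ± 0.429 (SE) was called (adjusted p = 0.639 and 0.194).

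The enzymes that act after palmitate were lower in knockout livers on the NASH diet and showed no called diet difference in the wild type. Elovl6, the elongase of palmitate, was at 53.2, 55.2, 57.03, 25.2 and 60.5 CPM in WT NASH and 13.99, 18.3, 29.9, 25.8 and 14.7 in KO NASH. In WT chow it was at 75.8, 55.95, 51.6, 46.2 and 54.6 and in KO chow at 155, 53.7, 88.2, 75.8 and 67.3. KO NASH was the lowest group, and WT NASH 4 (25.2 CPM) fell inside its range. Elovl6 was 4.29-fold lower in KO NASH than in KO chow, with no overlap (log2 difference -2.1 ± 0.299 (SE), edgeR adjusted p = 0.00191; 4.31% of all genes were lower without overlap there), and 2.45-fold lower than in WT NASH (log2 difference -1.29 ± 0.292 (SE), adjusted p = 0.00974). The WT diet value was -0.18 ± 0.287 (SE) (adjusted p = 0.753).

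Scd1, the main hepatic Δ9 desaturase, had the highest mean CPM of the 10 genes in every group and varied widely from mouse to mouse. It was at 3298, 4714, 1182, 1625 and 3648 CPM in WT chow and 359.7, 2425, 2111, 1401 and 3671 in WT NASH. It was at 2400, 379, 1652, 394 and 756 in KO chow and 122, 559, 129.8, 937 and 96.8 in KO NASH. Within KO NASH 3 libraries (1, 3 and 5) lay at 96.8 to 129.8 CPM and the other 2 at 559 and 937, which overlaps WT NASH 1 at 359.7. Scd1 was 5.41-fold lower in KO NASH than in WT NASH (log2 difference -2.43 ± 0.712 (SE), edgeR adjusted p = 0.036), a call that ended without WT NASH 2, 3 or 5 or KO NASH 1, 3 or 5 (log2 -2.41 to -2.09, adjusted p = 0.0509 to 0.093). Its other 3 comparisons were not called (-0.54 for diet in WT, -1.37 for genotype on chow and -1.6 for diet in KO, adjusted p = 0.673, 0.284 and 0.182). Scd1 has close paralogs, and the sources used here do not say how the counting divided reads shared with them.

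Me1, the cytosolic malic enzyme that yields NADPH, was called in no comparison. On chow its mean was 72.3 ± 18.6 CPM in WT and 112 ± 22.5 in KO livers, and on the NASH diet 94.7 ± 41.7 and 93.1 ± 43.3 (SD, n = 5 each). The KO NASH against WT NASH log2 value was -0.03 ± 0.36 (SE) (edgeR adjusted p = 0.974). KO NASH split into 2 libraries (1 and 5) at 47.5 and 47.6 CPM and 3 at 113.5 to 143, and WT NASH 4 was at 24.0 CPM beside 97.04 to 132 in the rest of its group.

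**Figure D2:**
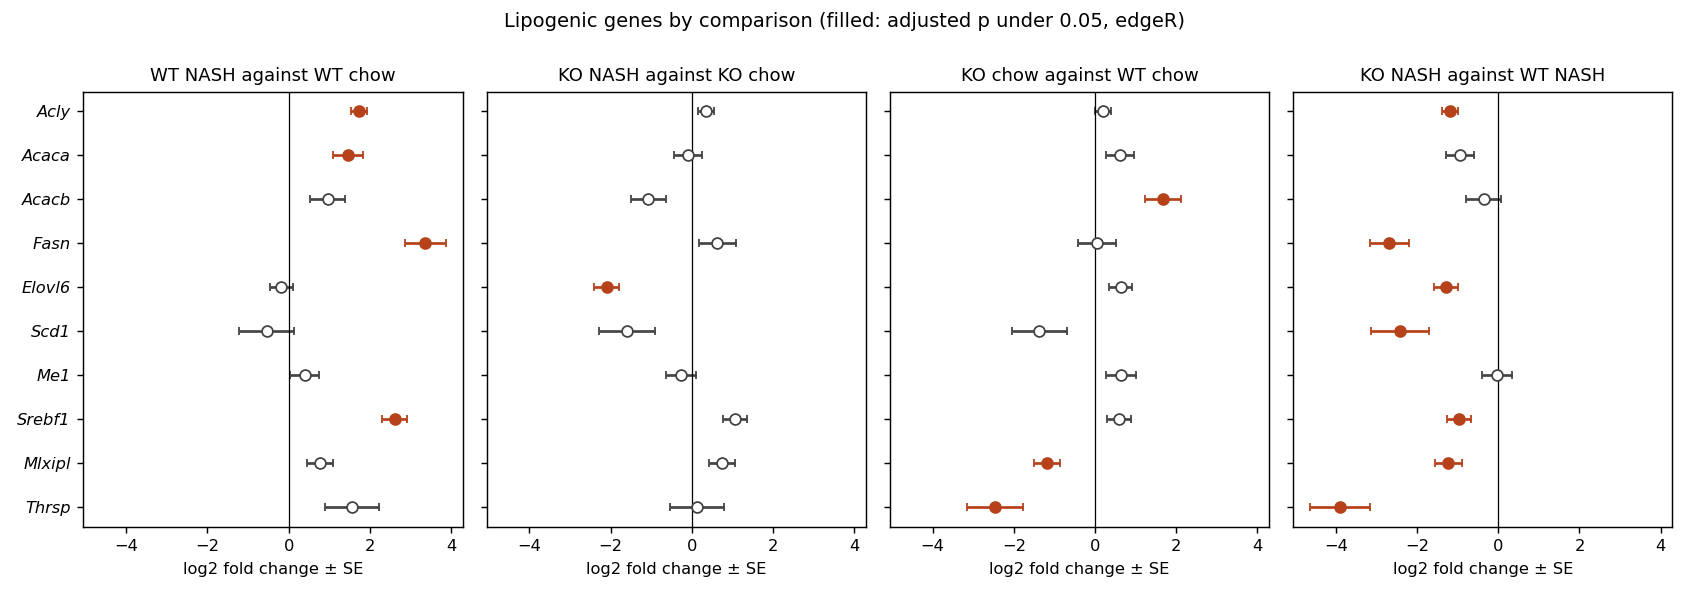
Log2 fold change of each of the 10 genes in the 4 comparisons between groups, with bars of ± SE from edgeR and filled symbols for an adjusted p below 0.05. Fasn (3.36), Srebf1 (2.61), Acly (1.74) and Acaca (1.46) are filled on the positive side for diet in WT, and 7 genes are filled on the negative side for KO NASH against WT NASH.

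Among the regulators, Srebf1 rose with the diet in the wild type. It was at 22.2, 22.8, 15.7, 15.7 and 18.9 CPM in WT chow and 112, 149, 156, 53.7 and 112 in WT NASH. In KO chow it was at 37.1, 25.1, 46.3, 18 and 16.5 and in KO NASH at 44.6, 82.5, 57.2, 64.3 and 49.02. All WT NASH libraries were above all WT chow libraries, but WT NASH 4 (53.7) lay inside the KO NASH range of 44.6 to 82.5. The WT rise was 6.12-fold (log2 difference 2.61 ± 0.31 (SE), edgeR adjusted p = 7.41e-05), and the KO value between diets was 1.06 ± 0.295 (SE) with adjusted p = 0.0531, which passed without WT NASH 4 or without KO chow 3 (log2 1.05 to 1.3, adjusted p = 0.0204 to 0.0238). KO NASH was 1.96-fold below WT NASH (log2 difference -0.97 ± 0.294 (SE), edgeR adjusted p = 0.0417); this call, close to the threshold, ended in 9 of the 20 fits with 1 library left out, those without WT chow 1, WT NASH 1, 2, 3 or 5, or KO NASH 1, 3, 4 or 5 (log2 -1 to -0.84, adjusted p = 0.0505 to 0.109). The counts pool the SREBP-1a and SREBP-1c transcripts, and Srebf1 shares 109 exonic bases with Rai1 on the opposite strand; the sources used here do not say whether the counting used strand.

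Mlxipl was lower in knockout livers on both diets. It was at 118, 97.1, 102, 77.8 and 81.6 CPM in WT chow and 39.6, 32.01, 62.9, 27.2 and 46.4 in KO chow. In WT NASH it was at 188, 178, 192, 93.6 and 164 and in KO NASH at 32.1, 79.5, 68.1, 132 and 36.8. On chow the genotypes did not overlap, and on the NASH diet KO NASH 4 (132 CPM) lay above WT NASH 4 (93.6). KO was 2.29-fold lower on chow (log2 difference -1.19 ± 0.325 (SE), edgeR adjusted p = 0.0367; 2.65% of all genes were lower without overlap there) and 2.34-fold lower on the NASH diet (-1.23 ± 0.325 (SE), adjusted p = 0.0231). In this fit the 2 estimates lay close, with a difference between them of -0.03 ± 0.454 (SE) on the log2 scale. That difference ran from -0.4 to 1.08 over 34 alternatives and changed sign in 12 of them. With sex as a term the NASH diet value was -0.79, while the chow value ran from -1.57 to -1.08 over its 35 alternatives. The chow call ended without any 1 of WT chow 1, 2, 3 or 5 or KO chow 1, 2 or 4 (log2 -1.24 to -1.08, adjusted p = 0.0502 to 0.105), and the NASH diet call without KO NASH 1, 3 or 5 (log2 -1.22 to -1.03, adjusted p = 0.0516 to 0.0703).

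Thrsp, the Spot 14 gene, had the largest genotype difference of the 10. It was at 47.8, 88.3, 144, 71.1 and 104 CPM in WT NASH and 2.09, 5.73, 3.29, 17.97 and 1.496 in KO NASH. In WT chow it was at 18.01, 25.1, 12.1, 5.51 and 93.6 and in KO chow at 4.63, 2.37, 7.33, 4.86 and 8.75. All KO NASH values were below all WT NASH values, and WT chow 5, at 93.6 CPM, stood far above the other 4 WT chow libraries. KO NASH was 14.9-fold below WT NASH (log2 difference -3.9 ± 0.729 (SE), edgeR adjusted p = 0.00251), and KO chow 5.55-fold below WT chow (-2.47 ± 0.691 (SE), adjusted p = 0.041). The chow call ended without WT chow 5, KO chow 1, 2, 3 or 4, WT NASH 2 or 5, or KO NASH 2 (log2 -2.59 to -1.43, adjusted p = 0.0503 to 0.19). The diet value in WT was 1.56 ± 0.661 (SE) (adjusted p = 0.171); without WT chow 5 it was 2.59, with edgeR adjusted p = 0.0265.

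The wild-type rise with diet compares 5 male WT chow livers with 1 male and 4 female WT NASH livers. Acly, Fasn and Srebf1 did not overlap between the diets, where 2.9% of all genes were higher without overlap. The sex term used next is 1 value shared by all 4 groups, and in WT only WT NASH holds both sexes. A shared value need not hold for each group. In WT NASH the male held 80.0 CPM of Fasn and the females 291 to 391. In KO NASH the female (43.9) lay within the males (24.9 to 70.3). With sex as a term in the fit, 3 of the 4 calls stayed, Acly at 1.59 (edgeR adjusted p = 0.00418), Fasn at 2.85 (0.0376) and Srebf1 at 2.06 (0.00579), where 0.457% of all genes were higher. Acaca, at 1.3, was not called (adjusted p = 0.252). It was called with sex and length slope as terms together, at 0.91 (edgeR adjusted p = 0.0286). In the 14 libraries without a negative length slope, with sex as a term, it was also called, at 1.22 (0.0153). In those 14 libraries WT chow is all male and WT NASH all female, so the sex term rests on KO livers alone. That fit cannot separate sex from diet within WT. Set beside the 3 WT chow males that also have a negative slope, the WT NASH male held 80.0 against 13.1 to 17.05 CPM of Fasn, 152 against 35.3 to 59.0 of Acly, 53.7 against 15.7 to 18.9 of Srebf1 and 21.5 against 9.59 to 17.2 of Acaca; for the first 3 genes that order is again given by the lack of overlap. In the fit of males alone, where WT NASH is 1 library, none of the 10 was called in this comparison (3 had an unadjusted p below 0.05), beside 0.596% of all genes, and the Acaca log2 value was -0.03.

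The genotype difference on the NASH diet compares 4 female and 1 male WT livers with 1 female and 4 male KO livers. Acly, Fasn and Thrsp were lower in KO without overlap, where 6.44% of all genes were lower without overlap. With sex as a term, again 1 value shared by all groups, these same 3 kept their calls, where 2.31% of all genes were lower. They were Acly at -1.08 (edgeR adjusted p = 0.0106), Fasn at -2.27 (0.0411) and Thrsp at -3.54 (0.0168). Elovl6 (-1.23, adjusted p = 0.0635), Scd1 (-2.16, 0.118), Mlxipl (-0.79, 0.192) and Srebf1 (-0.56, 0.315) lost theirs. With sex and length slope as terms together, 6 of the 10 were called, all lower: Acly, Acaca, Fasn, Elovl6, Srebf1 and Thrsp, where 5.37% of all genes were lower. Without WT NASH 4, 8 of the 10 were called lower, but the share of all genes called was not computed for that fit. In the 14 libraries without a negative length slope, with sex as a term, Acaca, Acly and Fasn were called lower, where 0.832% of all genes were lower. WT NASH is all female in that fit, and its sex term rests on KO livers alone. Thrsp was not called there (-3.59, edgeR adjusted p = 0.0695).

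Within a sex the genes did not all run the same way between WT NASH and KO NASH. Acly, Fasn and Thrsp were lower in KO in both sexes, an order already given by the lack of overlap between all 10 libraries, so it is no separate result. For Fasn the WT male held 80.0 CPM and the 4 KO males 24.9 to 70.3, and the 4 WT females held 291 to 391 and the KO female 43.9. For Acly the WT male held 152 CPM against 77.1 to 94.0 in the KO males, and the WT females 178 to 207 against 78.1. Thrsp was at 71.1 CPM in the WT male and 1.496 to 17.97 in the KO males, and at 47.8 to 144 in the WT females and 5.73 in the KO female. In males, Acaca was higher in every KO library (29.7 to 32.4 CPM) than in the WT male (21.5), and so was Me1, at 47.5 to 143 against 24.0; in females Acaca was at 29.9 in KO and 59.5 to 75.0 in WT. Srebf1 was at 53.7 CPM in the WT male and 44.6 to 64.3 in the KO males, and Acacb at 51.6 against 38.8 to 70.7. In the fit of males alone the log2 difference was above 0 for these 4 genes (Me1 1.91, Acaca 0.57, Acacb 0.05 and Srebf1 0.03) and below 0 for the other 6, from -3.48 for Thrsp to -0.22 for Elovl6. In females alone it was above 0 for Acacb (0.12) and Me1 (0.04) and below 0 for the other 8. Fits within a sex rest on 1 library in one arm, whose spread is assumed to be that of the others; they called none of the 10 (3 with an unadjusted p below 0.05 in males and 6 in females), where the fit of males called 13% of all genes, 9.69% lower, and that of females 0.138%.

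**Figure D3:**
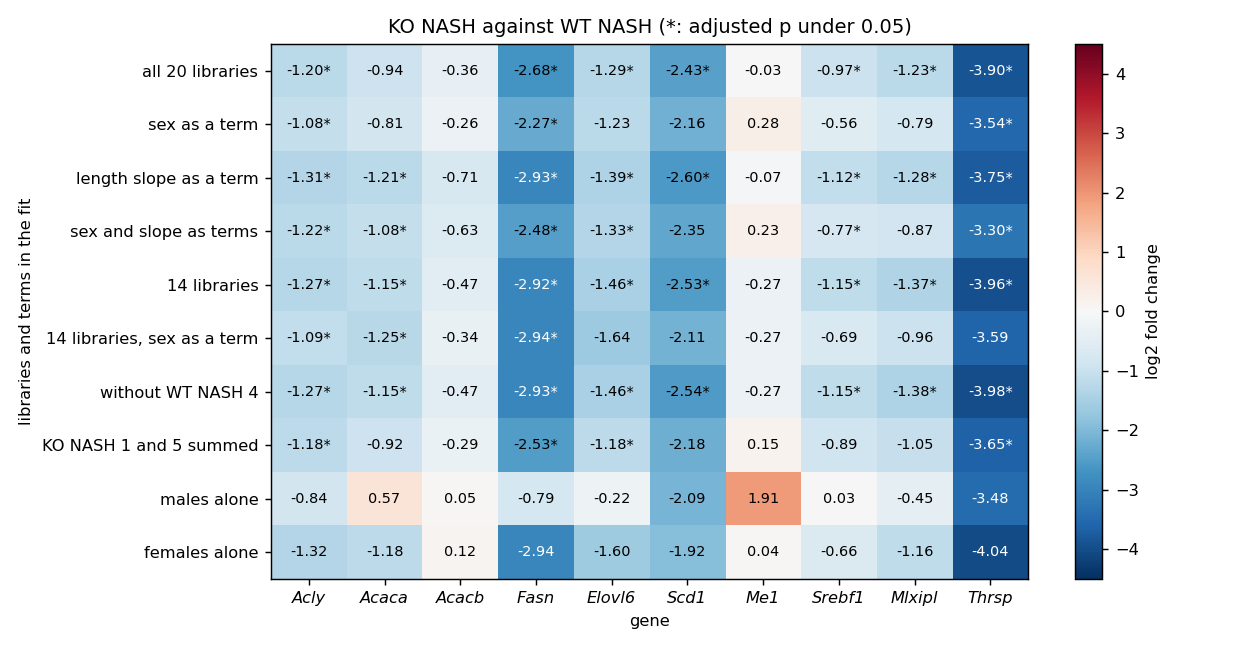
Log2 fold change of the 10 genes in KO NASH against WT NASH under the fit of all 20 libraries and under alternatives for sex, length slope and single libraries (rows), coloured by value and marked with an asterisk where the adjusted p was below 0.05. Fasn, Acly, Thrsp, Scd1, Elovl6 and Mlxipl lie below 0 under every setting shown, while Me1 (1.91), Acaca (0.57), Acacb (0.05) and Srebf1 (0.03) are above 0 in males alone.

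Other signals moved with the same groups. Summed CPM of 7 genes induced in fasting lay on chow at 4468 to 7470 in WT and 6978 to 10300 in KO livers, and on the NASH diet at 1395 to 4316 and 4646 to 6104, so WT NASH was below the other groups throughout; of these genes Acot1 was called lower in WT NASH than in WT chow (-2.87), Pdk4 higher in KO chow than in WT chow (3.76) and Fgf21 higher in KO NASH than in WT NASH (1.82). Among 9 clock genes, Arntl was higher in WT NASH than in WT chow (2.74) and, in KO NASH against WT NASH, lower (-1.42) while Dbp (1.92) and Ciart (1.79) were higher. Of 5 adipocyte markers the summed CPM was 0.452 to 0.968 in WT NASH and 3.59 to 54.5 in KO NASH, highest in KO NASH 4. Nearly all of it was Cfd, the 1 marker of the list that passed the low-count filter, at 3.59 to 54.4 CPM in KO NASH; 1 of the others, Lep, was at 0 in all 5 KO NASH libraries. Markers of other liver cells were also called in KO NASH against WT NASH: of 5 endothelial markers Lyve1 (1.62) and Kdr (0.66) were higher and none lower, with a summed CPM of 140.8 to 223 in WT NASH and 178 to 288 in KO NASH, and of 5 Kupffer cell and macrophage markers Timd4 was lower (-1.42) and none higher, with 176 to 351 and 133.5 to 173. Of 5 pancreatic acinar markers only Cela1 passed the low-count filter. Cela1 was lower in KO NASH than in WT NASH (-3.16), at 3.24 to 4.45 and 11.7 to 107 CPM. The others of that list, Pnlip, Cpa1, Ctrb1 and Cel, had at most 3 counts in any library of any group. The haemoglobin genes Hbb-bs and Hbb-bt were lower on the NASH diet in WT (-2.31 and -2.16) and in KO (-2.57 and -2). The part of feeding state, hour of collection, adipose tissue or these other cells in the lipogenic differences was not tested. In bulk liver RNA, fewer cells of a type and less RNA per cell cannot be told apart.

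Whether the genotype effect differed between diets was tested for each gene by the interaction term. All 10 estimates were negative, from -2.73 for Fasn to -0.03 for Mlxipl, with a median of -1.49 beside -0.03 over all genes. Acly alone was called (log2 -1.39 ± 0.276 (SE), edgeR adjusted p = 0.0451), where 0.139% of all genes were called and 0.0831% in the negative direction. For Elovl6 the interaction was -1.92 ± 0.41 (SE) (adjusted p = 0.0747), for Fasn -2.73 ± 0.665 (SE) (0.115), for Srebf1 -1.56 ± 0.416 (SE) (0.15), for Acacb -2.03 ± 0.607 (SE) (0.216) and for Acaca -1.55 ± 0.5 (SE) (0.274). Thrsp (-1.43 ± 0.933 (SE)), Scd1 (-1.06 ± 0.958 (SE)) and Me1 (-0.66 ± 0.51 (SE)) had adjusted p values of 0.763, 0.855 and 0.82, and Mlxipl one of 0.993. The Acly call ended in 14 of the 20 fits with 1 library left out (log2 -1.48 to -1.23, adjusted p = 0.0584 to 0.106), that is, without WT chow 1, 2, 3 or 5, WT NASH 1, 2, 3 or 5, KO chow 1 or 3, or KO NASH 1, 3, 4 or 5, and it was also lost with sex as a term. Without WT NASH 4, 4 of the 10 were called, among them Elovl6, Fasn (-2.98, edgeR adjusted p = 0.0165) and Srebf1 (-1.74, 0.0226). The share of all genes called was not computed for that fit.

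Per kilobase of exon (GENCODE M21), the genes differed by more than 2 orders of magnitude. In WT chow Scd1 led at 591 ± 299.5 CPM per kb, followed by Me1 (18.8 ± 4.82), Mlxipl (17.2 ± 2.92), Thrsp (14.1 ± 16.4), Acly (10.7 ± 2.66) and Elovl6 (8.84 ± 1.75), where each neighbouring pair after Scd1 differed by less than the larger of its SDs. Acacb (4.09 ± 2.06), Srebf1 (3.38 ± 0.603), Fasn (2.57 ± 1.61) and Acaca (1.26 ± 0.612) were lowest. In WT NASH the order after Scd1 (408 ± 251) was Thrsp (41.6 ± 16.6), Acly (35.7 ± 4.45), Mlxipl (29.4 ± 7.29), Fasn (26.4 ± 11.2), Me1 (24.6 ± 10.8) and Srebf1 (20.7 ± 7.21). Fasn thus moved from the ninth place to the fifth. In KO NASH Thrsp stood at 2.79 ± 3.12 CPM per kb and Fasn at 4.11 ± 1.82, beside 24.2 ± 11.2 for Me1. Exonic length is that of all annotated transcripts joined, so these levels are approximate.

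The neighbouring steps of the pathway were read from a list of 27 genes, all of which passed the filter. In WT NASH against WT chow 4 were higher and 1 lower, where 2.69% of all genes were higher and 3.24% lower. Mid1ip1 (2.25 ± 0.279 (SE)), a relative of Spot 14 that promotes polymerisation of acetyl-CoA carboxylase, Srebf2 (2.04 ± 0.341 (SE)), the SREBP of cholesterol synthesis, and Insig1 (1.73), which retains SREBPs in the endoplasmic reticulum, rose most, followed by Pklr (1.6), liver pyruvate kinase. Mlycd, which degrades malonyl-CoA, was lower (-0.78 ± 0.217 (SE)). In KO NASH against WT NASH 4 were lower and 1 higher, where 4.74% of all genes were lower and 4.9% higher. Pklr (-2.62 ± 0.389 (SE), edgeR adjusted p = 0.000465) and Mid1ip1 (-1.85 ± 0.273 (SE), adjusted p = 0.000434) fell most, then Insig1 (-1.24 ± 0.37 (SE)) and Acss2 (-0.82 ± 0.225 (SE)), the cytosolic acetyl-CoA synthetase, while Elovl1, an elongase of very long chains, was higher (0.83 ± 0.178 (SE)). The median of the 27 was 0.22 in the first and -0.01 in the second comparison, beside 0.01 and 0 over all genes. The fall of Insig1 ended without KO NASH 1, 2, 4 or 5 or WT NASH 2, 3 or 4 (log2 -1.57 to -0.76 over 36 alternatives), that of Acss2 without KO NASH 1, 2 or 5 or WT NASH 4 (-1.24 to -0.65), and that of Mlycd without WT chow 3, 4 or 5 or WT NASH 1, 2, 3 or 5 (-0.99 to -0.25 over 35). Pklr in the first comparison and Acss2 in the second are named here beyond the 3 largest changes after their values were seen.

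Pklr, a classical ChREBP target, was at 140.4, 166, 129.9, 47.2 and 124 CPM in WT NASH and 15.1, 22.7, 13.9, 34.98 and 12.4 in KO NASH, without overlap. With sex as a term Pklr (-1.82), Mid1ip1 (-1.53) and Acss2 (-0.96) kept their calls in KO NASH against WT NASH and Insig1 (-1.11) did not; in the WT diet comparison only Mid1ip1 of the 5 kept its call. There Srebf2 went from 2.04 to 1.7, Insig1 from 1.73 to 1.57 and Mlycd from -0.78 to -0.96, while Pklr went from 1.6 to 0.61 (adjusted p = 0.0755, 0.0881, 0.0931 and 0.499). On chow the single call of the list was Elovl5, an elongase of polyunsaturated chains, higher in KO (1.24 ± 0.3 (SE), adjusted p = 0.0208), a call that ended without KO chow 1 or 2; 3.03% of all genes were higher there. Between diets in KO, 3 of the 27 were higher (Mid1ip1 at 1, Trib1, a regulator of lipogenic transcription factor turnover, at 0.79, and Elovl1 at 0.72) and none lower, where 1.77% of all genes were higher. Of these Mid1ip1 was called in 12 of 36 alternatives (0.78 to 1.15), Trib1 in 27 (0.62 to 0.87) and Elovl1 in 24 (0.43 to 0.83), and no interaction of the 27 was called (6 with an unadjusted p below 0.05).

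**Figure D4:**
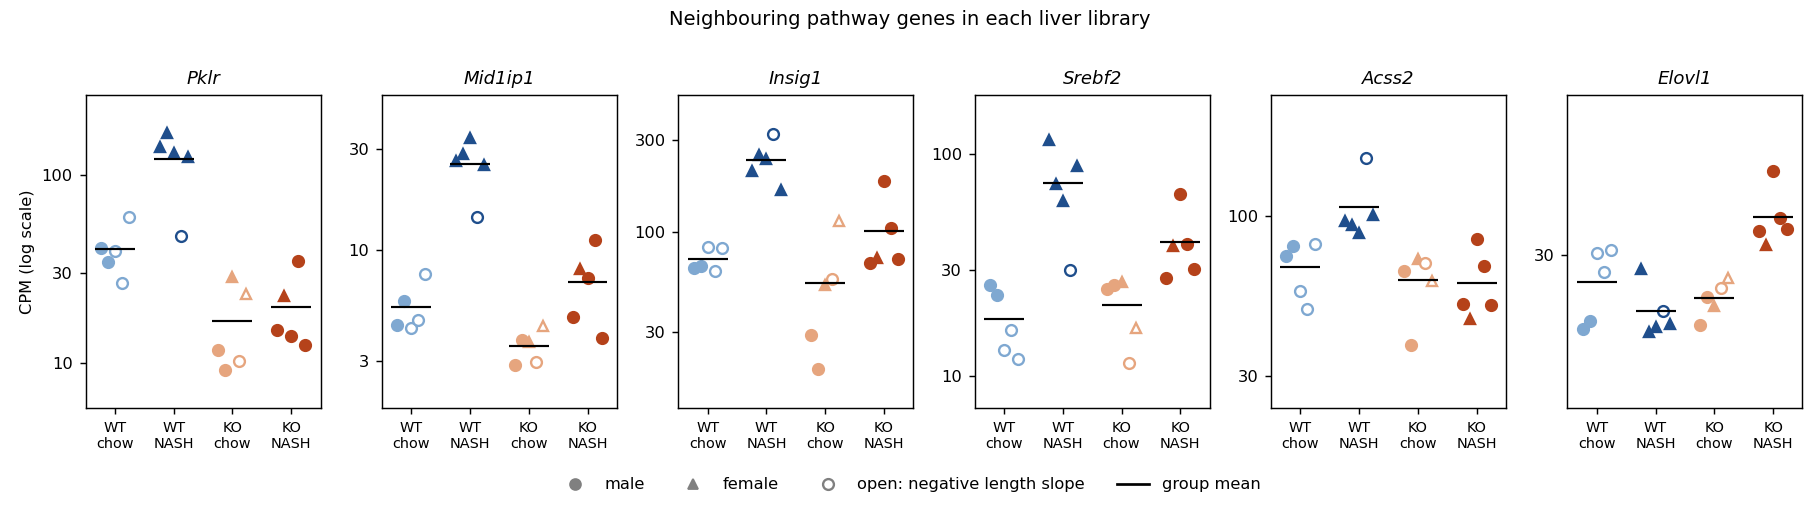
CPM (log axis) of 6 neighbouring genes of the pathway in each library, by group, with circles for male and triangles for female libraries, open symbols for a negative length slope and a bar for the group mean. Pklr, Mid1ip1 and Acss2 lie lower in every KO NASH library than in any WT NASH library, and Elovl1 lies higher in every KO NASH library (31.9 to 50.1 CPM) than in any WT NASH library (18.6 to 27.5 CPM).

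Within groups, most of the other genes varied together with Srebf1 from mouse to mouse, and fewer of them with Mlxipl when ranks were used. Deviations of log2 CPM from the group means were compared over the 20 libraries for 16 pairs, with permutation within groups (100000 resamples, two-sided) and adjustment over the 16. Srebf1 went with Acaca (r = 0.78, rho = 0.74, adjusted permutation p = 0.00364 and 0.0064), Fasn (r = 0.75, rho = 0.7) and Acly (r = 0.70, rho = 0.75), and least with Thrsp (r = 0.29). Mlxipl went with Fasn (r = 0.70, rho = 0.58, adjusted permutation p = 0.00325 and 0.0313), Me1 (r = 0.64, rho = 0.47, adjusted permutation p = 0.0296 and 0.0838) and Elovl6 (r = 0.62, rho = 0.61), and least with Acacb (r = 0.23). For each regulator 7 of 8 r values passed the adjusted threshold, but of the rho values 6 of 8 for Srebf1 (not Me1 or Thrsp) and 4 of 8 for Mlxipl (not Acaca, Acacb, Scd1 or Me1). Without the 2 libraries farthest from the median of the regulator (WT NASH 4 and KO chow 3 for Srebf1, KO NASH 1 and 4 for Mlxipl) the r values ran from 0.29 to 0.71 and from 0.35 to 0.70. When sex and length slope were also removed, r ran from 0 to 0.62 for Srebf1 and from -0.05 to 0.70 for Mlxipl. Srebf1 with Fasn went from 0.75 to 0.31, with Acaca from 0.78 to 0.51 and with Acacb from 0.56 to 0. Its r rose with Scd1 (0.55 to 0.62) and Thrsp (0.29 to 0.5) and fell with all the rest. Mlxipl stayed at 0.70 with Fasn and rose with Thrsp (0.56 to 0.6). It fell with all the rest, among them Acacb (0.23 to -0.05) and Acly (0.49 to 0.37). All pairs share library, depth and composition.

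As a description over the 20 libraries, each gene's log2 CPM was set against the mean of the other 9 after standardisation. Fasn stood closest to the rest (r = 0.88), then Acaca (0.78), Acly (0.73), Srebf1 (0.67), Mlxipl (0.66) and Thrsp (0.61), while Acacb and Scd1 (0.36 each), Me1 (0.29) and Elovl6 (0.26) followed it least. Among the 9520 other genes that averaged 5 CPM or more, those whose profile was most like the mean of the 10 were Slc25a44 (r = 0.90), Pm20d2 (0.87), Lrig3 and Ceacam1 (0.86 each) and Dgat2 (0.85), the acyltransferase that makes triglyceride. Dgat2 was at 404 ± 107 CPM (SD, n = 5) in WT NASH and 245 ± 70.9 in KO NASH. The most opposite profiles were those of Tmem86a (-0.85), Igfbp2 (-0.84), Galnt11, Slc25a33 and Il17rb (-0.83 each), with Igfbp2 at 354 ± 176 CPM in WT NASH and 848 ± 374 in KO NASH. These libraries share diet, genotype, sex and slope differences, and no test was made on the likeness.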

How the data were processed

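Total RNA of 20 mouse livers was sequenced on Illumina machines after Trizol extraction, with an RNA integrity number above 8 required, per the labels' protocols. Reads were aligned with HISAT2 2.0.4 to GRCm38, per the submitters' processing notes; the sources used here do not give the counting program, the annotation or the use of strand. What the authors deposited is a table of whole-number read counts per gene, not normalized. Its column names call the NASH diet HFD, and each was matched to a sample by genotype, diet and number; 0 columns of per-sample values were left unused.

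Genes passing filterByExpr (14440 of 46095) were fitted with edgeR 4.0.16 in R 4.3.3: TMM scaling, glmQLFit over all 20 libraries with 1 coefficient per group, glmQLFTest, and Benjamini-Hochberg adjustment over all genes tested, with a call below 0.05. CPM are counts scaled to the TMM-adjusted library size, and fold changes are log2 without shrinkage. Sex was read from 4 Y-linked genes, with at least 100 counts taken as male. The length slope is that of log2 CPM, relative to the mean library, on log2 exonic length (GENCODE M21) over 9518 genes. Alternatives used RLE scaling, other filters, DESeq2 1.42.0, limma 3.58.1 (voom), the replicate number as a block, sex and slope terms, single sexes and left-out libraries. The sex and slope terms were each 1 coefficient shared by all groups. On simulated data with 200 genes changed 4-fold, the test recovered 81% in KO NASH against WT NASH, 77.5% in WT NASH against WT chow, 79% in KO chow against WT chow, 82% in KO NASH against KO chow and 47% of the interactions. Of the calls, 1.25% (KO chow against WT chow) to 6% (interaction) were false. The simulated counts held no sex or length slope effect, so these rates do not cover the uneven sexes and slopes of the groups. Library totals of 9958935 to 20601955 counts gave at least 33 counts for every member, so the spread between mice (common coefficient of variation 39.04%) rather than counting limited precision. Replicate numbers did not pair the samples.

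The 10 genes, the list of 27 pathway genes and the marker lists were chosen with earlier results of these data known. All 10 are named in each comparison, in the text or the plots, and of the 27 the 3 largest called rises and falls; the most like genes are the 5 highest and 5 lowest by r. Promoters are RefSeq sequences of GRCm38.p6, matched by symbol for 9 of the 10. Marker lists covered hepatocytes, adipocytes, macrophages, stellate, endothelial and bile duct cells, lymphocytes, pancreas, red blood cells, clock and fasting genes. A further gene of the pathway list is not reported here.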

Additional observations from a re-analysis of the deposited data

Results flagged for a closer look

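In 6 of the 40 combinations of gene and group (5 libraries each), 1 library lay far from the others on the log2 scale. The gap in log2 CPM exceeded Dixon's 95% critical value of 0.71 of the group's range on that scale. Chance gives about 1 in 20. Of these 6 combinations, 5 were the same library, WT NASH 4, at the low end, and the values below are CPM without the log. It held 21.5 CPM of Acaca (others 59.5 to 75.0), 80.0 of Fasn (others 291 to 391), 25.2 of Elovl6 (others 53.2 to 60.5), 24.0 of Me1 (others 97.04 to 132) and 93.6 of Mlxipl (others 164 to 192). This library was the single male and the single one with a negative length slope in its group, had the smallest total (9958935 counts) and the lowest summed CPM of fasting genes (1395); the part of each of these was not tested. The other was KO NASH 4 for Acly, at 94.0 CPM where the others held 77.1 to 81.0.

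The interaction of genotype and diet was called for Acly, at -1.39 on the log2 scale (edgeR adjusted p = 0.0451), from 0.19 on chow to -1.20 on the NASH diet. The call is close to the threshold and was lost in 20 of 34 alternatives, among them the replicate block (adjusted p = 0.0836), sex as a term (0.328) and 14 of the 20 fits with 1 library left out; the estimate ran from -1.6 to -0.95.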

How the results depend on the processing

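Each comparison was refitted under 15 alternatives and with each of the 20 libraries left out, plus 1 alternative added after seeing the data (the 14 libraries without a negative length slope, with sex as a term); some could not be fitted for every comparison. Of 1760 log2 fold changes of single genes, 1599 stayed on their side of the threshold (50 of these with the other sign, uncalled in both fits), 105 lost a call, 54 gained one and 2 that had been called changed sign: Srebf1 in KO NASH against WT NASH (0.03 in males alone) and Acaca in WT NASH against WT chow (-0.03 in males alone). The cause of the changes was not tested, except that fits within a sex have fewer samples. The share of all genes called moved too. In KO NASH against KO chow it was 3.29% in the main fit and 6.36% with slope. There it was 9.37% with sex and slope, 7.69% with the 14 libraries and 10.6% in the added alternative. For the interaction it was 0.139% in the main fit, 1.31% with DESeq2, 1.32% with slope and 0.518% with the 14 libraries. In KO NASH against WT NASH it was 9.65% in the main fit, 4.33% with sex as a term and 2.44% in the added alternative. Called members, of 10, were as follows under the settings that moved a count by over 1.5 times. In KO NASH against WT NASH (7) they were 3 with sex as a term, 3 in the added alternative, 4 with KO NASH 1 and 5 summed, 0 in males alone and 0 in females alone. For the diet in WT livers (4) they were 7 with limma voom and 0 in males alone. In KO chow against WT chow (3) they were 6 with limma voom and 1 with only the 2 groups in the fit, with the 14 libraries and in the added alternative. In KO NASH against KO chow (1) they were 2 without the 20 most abundant genes in scaling, with a mean of at least 5 CPM, with DESeq2, with the replicate block and with sex as a term, 3 with limma voom, with slope, with sex and slope and with the 14 libraries, 4 in the added alternative and 0 in females alone (2 with an unadjusted p below 0.05). For the interaction (1) they were 0 without a count filter, with the replicate block, with sex as a term, in males alone and with KO NASH 1 and 5 summed (5 or 6 with an unadjusted p below 0.05 in edgeR, and 1 in males alone), 4 with DESeq2, 6 with limma voom, 6 with slope and 5 with the 14 libraries.

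With 1 library left out the counts ranged from 4 to 8 for KO NASH against WT NASH (4 without KO NASH 1, 3 or 5), 3 to 4 for WT NASH against WT chow, 0 to 3 for KO chow against WT chow (0 without WT chow 5, KO chow 1 or KO chow 2, where 3 or 4 had an unadjusted p below 0.05 in edgeR, and 1 without WT chow 3 or KO chow 4), 1 to 2 for KO NASH against KO chow (2 without WT NASH 4 or KO chow 3) and 0 to 4 for the interaction (4 without WT NASH 4, 2 without KO chow 2; 0 in 14 fits, where 6 or 7 had an unadjusted p below 0.05). Limma voom called up to 40.6% of all genes, so its larger counts stand on a larger background. For the fits with 1 library left out the share of all genes called was not computed, so their counts have no background beside them. Same-numbered libraries of 2 groups correlated between -0.41 and 0.52 in their deviations and 5 of 20 went best with their own number, so the numbers were not taken as pairs; with the replicate block the counts were 6 for the genotype on the NASH diet, 2 for the genotype on chow, 4 for the diet in WT, 2 for the diet in KO and 0 for the interaction. Depth did not limit these genes, whose lowest count was 33.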

Other observations

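Within KO NASH the libraries did not lie evenly. Replicates 1 and 5, the most alike pair of the group, were the lowest 2 of the 5 for Mlxipl (32.1 and 36.8 CPM, others 68.1 to 132), Me1 (47.6 and 47.5, others 113.5 to 143) and Fasn (24.9 and 26.6, others 43.9 to 70.3), and were not set apart for Acaca (29.7 and 30.6, others 29.9 to 32.4). KO NASH 4 held the highest values of the group for Mlxipl, Fasn, Scd1, Acly, Thrsp and Pklr, and also the highest summed CPM of adipocyte markers (54.5, others 3.59 to 9.42). Thrsp in WT chow showed a similar split, with 93.6 CPM in replicate 5 and 5.51 to 25.1 in the others; the same replicate was highest of its group for Pklr (59.8 CPM), beside the highest summed CPM of fasting genes in that group (7470). These are values of single libraries, without a test.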
